A study of Homo sapiens with 12 samples.

Results

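The regions described here are the RIP-seq peaks that lay across a start codon in HepG2 cells. RNA immunoprecipitation followed by sequencing (RIP-seq) pulls down a protein with the RNA attached to it, and a peak is a stretch of exonic sequence over-represented in the pull-down relative to the input RNA. A peak was a start codon peak when at least 1 base of it overlapped, on the same strand, the start codon of the Ensembl canonical transcript of the gene named for that peak, and when it did not also reach the stop codon. The rule used position alone, and no enrichment value. Of 101848 peaks in 6 lists, 7037 met it, and they belonged to 3441 genes and 3424 distinct start codons, since 17 codons belonged to more than 1 gene.

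HepG2 is an established human hepatocellular carcinoma (HCC) line. Cells were made to overexpress METTL16, eIF3a or eIF3b carrying a Flag tag, from stably introduced constructs, and ultraviolet light was used to cross-link RNA to protein. The series held 12 samples, which were 2 RIP samples and 2 inputs for each of the 3 proteins, and the 6 peak lists of the RIP samples were used. Per the labels, METTL16 and eIF3b were pulled down with a Flag antibody and eIF3a with an antibody against eIF3a, so the antibody and the protein cannot be told apart. The names of the deposited lists give Flag for eIF3a as well, and which is right was not settled here. The labels name the tagged protein and the antibody for each sample and give no drug treatment, so the overexpression is shared by all groups and no parental cell line was compared. The overexpressed tagged protein limits each group as a model, since it may not match the endogenous amount of METTL16, eIF3a or eIF3b. Throughout, the values of a protein are given for replicate 1 and then replicate 2.

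A scanning ribosome enters an mRNA at its 5′ end, moves along the 5′ UTR and selects a start codon, usually AUG, where translation begins. eIF3 is the many-subunit initiation factor that binds the small ribosomal subunit, helps to recruit the mRNA and takes part in scanning, and eIF3a and eIF3b belong to its core. METTL16 is an RNA methyltransferase that places N6-methyladenosine on the U6 spliceosomal RNA and on hairpins of the MAT2A mRNA, which codes for the enzyme that makes the methyl donor S-adenosylmethionine. The bases beside the AUG matter for how well it is recognised. A purine 3 bases before it and a G directly after it form a strong context.

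To show what the peaks covered, start codon contexts are printed for 4 sets of genes, each as 15 bases before the codon, the codon in capitals and 12 bases after it, read 5′ to 3′ on the transcript strand from GENCODE release 44 on GRCh38. The first set holds genes with a start codon peak in all 6 lists, chosen for the strongest ranks by p-value.
PTGES3: cctgccccgttcacaATGcagcctgcttct
CCNI: gatccaaaggatatcATGaagtttccaggg
DCAF11: tgctgtgaccagaagATGggatcgcggaac
TRIM44: cgtcacagcacccacATGgcctctggagtg
MMP15: ctgggcgccgagagcATGggcagcgacccg
ATP2A2: cgggcccccgaagccATGgagaacgcgcac
The second set holds genes whose start codon was covered in both lists of METTL16 and in no list of the other proteins.
UNC5B: ccaggccgcgggagcATGggggcccggagc
TLX1: ggggccagggccagcATGgagcacctgggt
The third set holds genes whose start codon was covered for an eIF3 subunit and in no METTL16 list.
ZNF81: aagtccgtcgggaacATGccagctaacgag
NPHP4: cctcaggcgggcaggATGaacgactggcac
PPP1R3E: ggggaaggggctgccATGtcccgtgagcgg
PTPN12: gggggacgcgggaggATGgagcaagtggag
The last set holds covered start codons that are not ATG in the annotation.
EIF4G2: tgtcaagccgccaaaGTGgagagtgcgatt
DDX17: tgagcgtagccaaacCTGcccaccggcttt
TEAD3: agagcaaccagcacaATAgcgtccaacagc
GTF3A: ggaggcgccggcgccCTGgatccgccggcc
VEGFA: agctgaccagtcgcgCTGacggacagacag

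The 6 lists held 12921 to 21733 peaks, and the number of reads behind a peak is unknown because no counts were used. A pair of features of the lists bears on what follows. The mean GC content of all peaks was 59.0% and 60.8% for METTL16, 53.7% and 53.1% for eIF3a and 58.1% and 54.1% for eIF3b, so eIF3b replicate 1 lay near the METTL16 lists and eIF3b replicate 2 near the eIF3a lists. The start codon peaks of eIF3a replicate 2 were wider than those of any other list, with a median of 450 exonic bases against 210 to 271. Peaks were found on 8 of 9 hepatocyte markers in at least 1 list, with SERPINA1 and HNF4A in all 6 lists and TTR in none, on 2 of 3 leukocyte markers (LYZ in 5 lists, PTPRC in 1), on both endothelial markers (VWF in 5 lists, PECAM1 in 4) and on 0 of 2 fibroblast markers. A peak reports enrichment over input and not expression, which limits what these marker counts say about cell identity.

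The first question was how large a share of each protein's peaks lay at the start codon. METTL16 had 1004 and 1090 start codon peaks, which were 7.61% and 8.30% of its peaks. eIF3a had 1153 and 628, or 5.31% and 4.86%. eIF3b had 1918 and 1244, or 9.21% and 6.21%. The means were 7.95% ± 0.489 (SD, n = 2) for METTL16, 5.08% ± 0.315 for eIF3a and 7.71% ± 2.12 for eIF3b. Both eIF3a lists were below all 4 other lists, whereas the eIF3b lists lay on either side of METTL16. The difference was 2.87 percentage points between METTL16 and eIF3a, 2.63 between eIF3b and eIF3a, and 0.243 between METTL16 and eIF3b. In an exact two-sided permutation test of 2 lists against 2, p was 0.333, 0.333 and 1, and 0.5, 0.5 and 1 after Benjamini-Hochberg adjustment over the 3 comparisons. The smallest p this design can give is 0.333, so none of the differences could pass a threshold of 0.05.

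**Figure D1:**
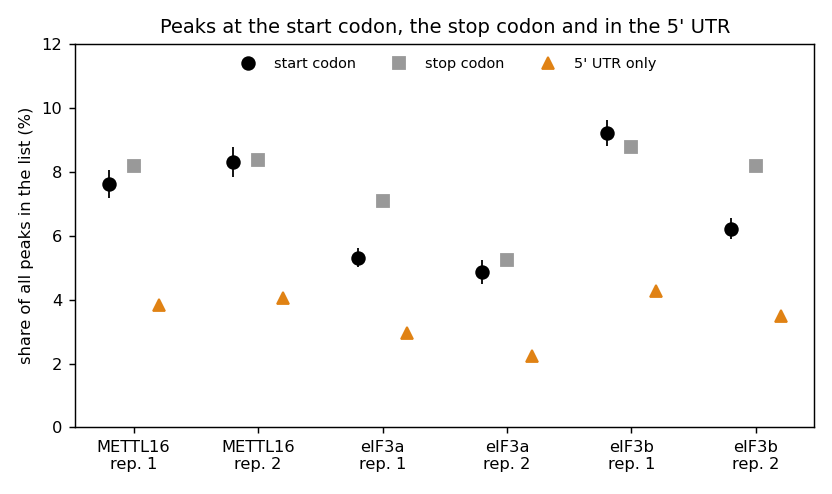
Share of all peaks of each list (%, y axis) that spanned the start codon, spanned the stop codon or lay wholly within the 5′ UTR, for the 6 lists (x axis). Bars on the start codon points are 95% Wilson intervals of a share of peaks, for example 7.17% to 8.07% in METTL16 replicate 1. The 2 eIF3a lists have the lowest start codon shares.

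At the other end of the coding sequence, the stop codon took 8.18% and 8.38% of METTL16 peaks, 7.08% and 5.22% of eIF3a peaks, and 8.77% and 8.17% of eIF3b peaks. The start codon share was the larger of the pair only in eIF3b replicate 1. Start minus stop averaged -0.722 percentage points (SD 0.953, n = 6 lists) and was below 0 in 5 of 6 lists (exact paired permutation test, two-sided, p = 0.125, adjusted p = 0.167 over 4 within-list comparisons). Its sign depended on the definition, since it was 1.12 points among peaks with a fold enrichment of at least 4, and 1.52 points when the start codon of any coding transcript counted. Peaks wholly within the 5′ UTR were 2.22% to 4.28% of a list, and peaks that reached both codons were 0.290% to 0.678%. All shares of peaks have 95% Wilson intervals that cover counting error only.

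Counted over genes, a start codon peak was found on 17.5% and 17.4% of the genes with a METTL16 peak, on 14.4% and 12.2% of those with an eIF3a peak, and on 24.3% and 16.7% of those with an eIF3b peak. No gene had more than 1 start codon peak in a list. By this measure METTL16 lay 3.05 points below eIF3b, although eIF3b replicate 2 was below both METTL16 lists, and 4.16 points above eIF3a. The eIF3b replicates differed by more than the METTL16 replicates did.

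The coverage of genes around the AUG was read over peaks of every class placed on a canonical transcript, not over start codon peaks alone. Among genes with a peak, a 5′ UTR of at least 100 bases and a coding sequence of at least 600 bases (3447 to 4952 genes per list), the start codon lay under a peak in 18.9% and 19.6% for METTL16, 15.0% and 15.6% for eIF3a, and 28.0% and 18.7% for eIF3b. At 300 bases downstream the shares were 15.1% and 19.3%, 16.7% and 23.5%, and 21.6% and 18.0%. In eIF3b replicate 1 and METTL16 replicate 1 coverage was highest near the AUG and fell into the coding sequence. In eIF3a replicate 2 it climbed from 9.60% at 100 bases before the AUG to 25.8% at 600 bases after it. The share at the start codon minus that at 300 bases averaged 0.259 points over the 6 lists (SD 4.93, above 0 in 4 of 6 lists, exact paired permutation test, p = 0.906, adjusted p = 0.906). Both eIF3a lists were below 0, at -1.62 and -7.95 points, and the other 4 lists were above 0.

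**Figure D2:**
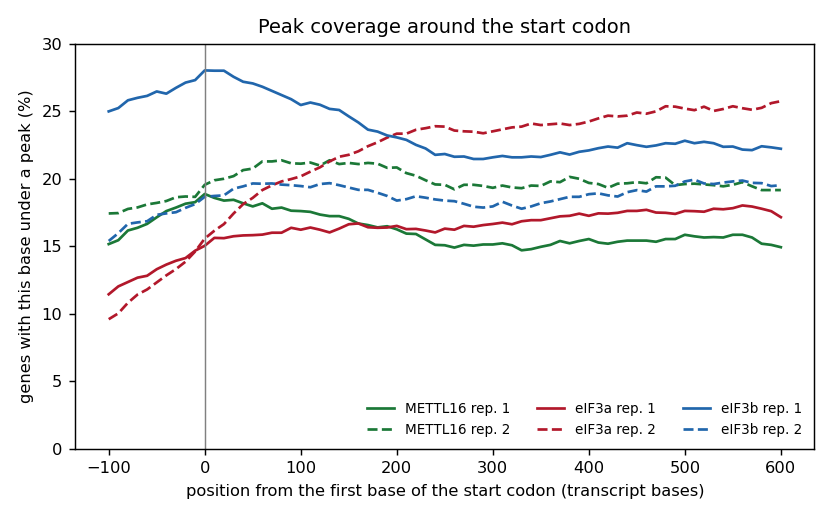
Share of genes whose base lay under a peak (%, y axis) against the position from the start codon in transcript bases (x axis, start codon at 0), 1 line per list, solid for replicate 1 and dashed for replicate 2. Peaks of every class were counted. eIF3b replicate 1 has its highest coverage at the start codon (28.0%), whereas eIF3a replicate 2 climbs through the coding sequence to 25.8%.

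Start codon peaks were centred slightly inside the coding sequence, at a median of 24.8 to 42.5 bases past the start codon in 5 lists and 128 bases in eIF3a replicate 2. The median number of bases before the codon was 73.5 and 70 for METTL16, 57 and 71 for eIF3a and 87 and 74 for eIF3b. After the codon the medians were 127 and 149, 126 and 326.5, and 147 and 143 bases. More bases lay after the codon than before it in 62.9% to 82.2% of the start codon peaks of a list. Peaks had less room before the codon, since the median 5′ UTR of start codon genes was 156 to 240 bases per list. Their median coding sequence was 1269 to 2013 bases. The part of this room in the downstream lean was not tested. The long downstream reach of eIF3a replicate 2 stood apart from the other 5 lists. Between 11.3% and 28.5% of the start codon peaks began at the very first annotated base of the transcript, with the lowest share in eIF3a replicate 2 and the highest in eIF3b replicate 1. A splice junction was crossed by 55.0% and 58.4% of METTL16 start codon peaks, 65.8% and 83.1% of eIF3a and 61.7% and 65.9% of eIF3b. Of all 7037 peaks, 140 held only part of the codon. Their median fold enrichment was 2.71, that of 198 5′ UTR peaks ending within 10 bases before the codon was 3.61, and that of 415 coding peaks starting within 10 bases after it was 2.70.

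The median enrichment over input of start codon peaks was above that of all other peaks pooled in every list, but not above that of every class of peak. The median fold enrichment of start codon peaks was 3.64 and 3.91 for METTL16, 3.24 and 4.49 for eIF3a and 4.12 and 3.27 for eIF3b. The medians of the other peaks were 3.05 and 3.34, 2.93 and 2.67, and 3.09 and 2.94. The nearest class, peaks wholly within the 5′ UTR, had medians of 4.08 and 4.21, 3.31 and 2.69, and 3.92 and 3.23, which were above those of the start codon peaks in both METTL16 lists and eIF3a replicate 1. Against all other peaks, the difference in median log2 fold enrichment was 0.26, 0.23, 0.15, 0.75, 0.42 and 0.15 in the order of the lists, and its mean was 0.32 (SD 0.23, above 0 in 6 of 6 lists). An exact paired permutation test over lists gave p = 0.03125, the smallest value that 6 lists allow, and an adjusted p of 0.0625 over the 4 within-list comparisons, so the difference did not pass the threshold after adjustment. It was 0.17 on the log2 scale (p = 0.03125, unadjusted, exact permutation test) among peaks of at most 300 bases and 0.04 (p = 0.625) among peaks with a fold enrichment of at least 4. That minimum cuts both groups on the very value compared, so this setting cannot decide whether the difference holds. The largest step was in eIF3a replicate 2, whose start codon peaks were also the widest.

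**Figure D3:**
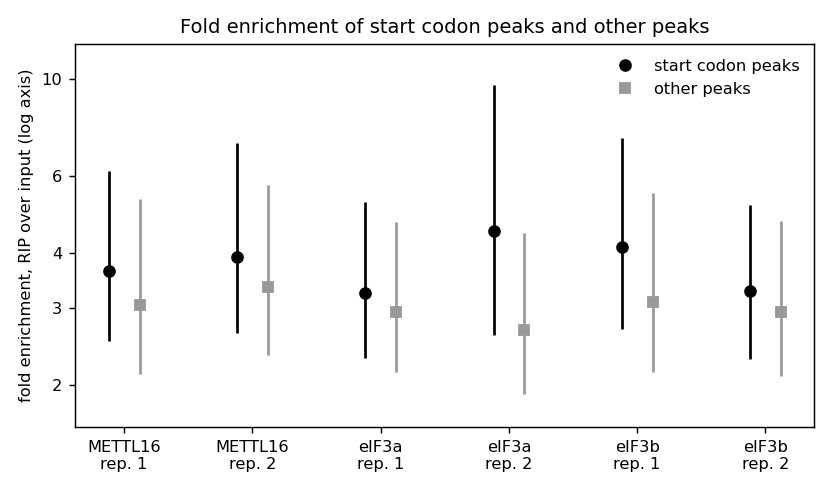
Median fold enrichment of RIP over input (points, y axis on a log scale) with the 25th to 75th percentile (bars) for start codon peaks and all other peaks in the 6 lists (x axis). The start codon median is above the other median in all 6 lists, with the widest gap in eIF3a replicate 2 (4.49 against 2.67).

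Where a gene had several peaks in a list, the start codon peak had the smallest p-value of them in 43.5% and 44.0% of genes for METTL16, 38.5% and 57.2% for eIF3a and 43.6% and 40.5% for eIF3b. For stop codon peaks those shares were 44.1% and 46.4%, 43.2% and 39.9%, and 44.8% and 46.6%. Only in eIF3a replicate 2 was the start codon share the larger of the pair. In 23.2% to 37.2% of start codon genes the start codon peak was the gene's only peak in the list.

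The sequence under start codon peaks held more GC than that of the other peaks pooled and less than that of 5′ UTR peaks. Their mean GC content was 67.7% and 67.6% for METTL16, 61.4% and 55.4% for eIF3a and 66.6% and 62.3% for eIF3b, against 58.2% and 60.1%, 53.2% and 53.0%, and 57.1% and 53.5% for the other peaks of the same lists. The mean difference was 7.62 percentage points (SD 2.67, above 0 in 6 of 6 lists, exact paired permutation test p = 0.03125, adjusted p = 0.0625). The smallest difference was 2.41 points, in eIF3a replicate 2. Peaks wholly within the 5′ UTR averaged 72.0% and 72.1% GC for METTL16, 68.3% and 66.0% for eIF3a and 70.1% and 68.3% for eIF3b, above the start codon peaks in all 6 lists. For reference, the sequence within 100 bases of all 19856 canonical start codons averaged 60.1% GC.

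Among genes with a peak, how often the start codon was covered depended on the GC content of the sequence within 100 bases of it, and this dependence differed between lists. Genes were put into 5 classes with equal numbers of canonical start codons, from under 50% GC to over 70.1%. From the lowest to the highest class, the share of genes with a start codon peak went from 3.67% to 25.2% and from 3.40% to 25.8% for METTL16. For eIF3b it went from 6.72% to 34.2% in replicate 1 and from 11.9% to 18.7% in replicate 2. For eIF3a it went from 9.54% to 13.5% in replicate 1, with the highest value of 16.6% in a middle class, and from 19.7% down to 6.53% in replicate 2. The METTL16 replicates had nearly the same profile, whereas the replicates of each eIF3 subunit did not. With every list weighted to the same GC classes, the shares of genes were 16.3% and 16.0% for METTL16, 14.4% and 12.2% for eIF3a and 23.5% and 16.7% for eIF3b. Which part of these profiles belongs to the protein, the antibody or the library was not tested.

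The exon that held the start codon separated eIF3a replicate 2 from the rest. In METTL16, 19.7% and 19.5% of genes with the start codon in exon 1 had a start codon peak, against 13.7% and 13.8% of genes with the start codon in a later exon. The same shares were 26.6% against 20.7% and 17.0% against 16.3% for eIF3b, and 14.2% against 14.7% for eIF3a replicate 1. In eIF3a replicate 2 they were 5.91% against 21.2%. That order held in each of the 5 GC classes of eIF3a replicate 2, from 10.7% against 21.8% in the lowest class to 5.41% against 14.1% in the highest. The order in METTL16 and eIF3b did not hold in most GC classes. In the upper 3 classes the later exons had the larger share in both METTL16 lists (24.9% against 27.3% and 25.6% against 27.0% in the highest class), and in 4 of 5 classes they had it in both eIF3b lists (33.2% against 40.9% and 18.0% against 23.2% in the highest). Start codons in exon 1 made up 71.2% and 71.7% of METTL16 members, 60.3% and 28.3% of eIF3a members and 67.3% and 61.9% of eIF3b members.

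**Figure D4:**
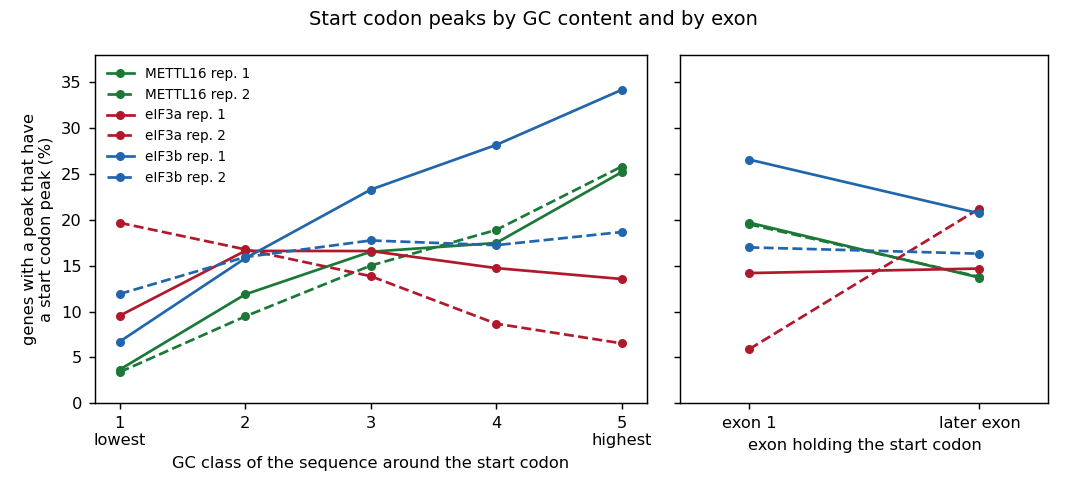
Share of genes with a peak that had a start codon peak (%, y axis), by class of GC content of the sequence within 100 bases of the start codon (left, 5 classes from lowest to highest) and by the exon holding the start codon (right), 1 line per list, solid for replicate 1 and dashed for replicate 2. METTL16 and eIF3b replicate 1 climb with GC content (3.67% to 25.2% in METTL16 replicate 1), whereas eIF3a replicate 2 falls from 19.7% to 6.53% and is the list with the large step between exons (5.91% against 21.2%).

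Other features of the start codon region, which the rule did not use, were also read out. A strong context was found at 46.5% and 45.8% of METTL16 start codon genes, 49.0% and 40.3% of eIF3a and 47.0% and 47.3% of eIF3b. Among the other genes with a peak it was found at 46.5% to 47.7%, and among all canonical start codons at 42.7%. An ATG in the 5′ UTR was present in 35.5% to 43.0% of start codon genes in 5 lists and in 60.5% in eIF3a replicate 2, whose start codon genes had a median 5′ UTR of 240 bases against 156 to 182 in the other lists. The letters CGGCGG, searched on the transcript strand within 100 bases of the start codon where the window was complete, were present in 33.4% and 32.6% of METTL16 start codon genes, 21.4% and 15.7% of eIF3a and 31.5% and 28.3% of eIF3b. In the other genes with a peak of the same lists they were present in 26.5% and 25.4%, 25.9% and 27.0%, and 23.2% and 24.4%, so both eIF3a lists were below these genes and the other 4 lists above them. Of all complete windows, 19.7% held these letters. ACAGAGA, the core of the U6 site of METTL16, was present in 1.54% and 1.44% of METTL16 start codon genes, and 1.49% to 3.04% of those of the eIF3 subunits, against 1.48% to 1.76% of the other genes with a peak and 2.32% of all complete windows. GGAC was present in 74.6% and 74.0% of METTL16 start codon genes, 67.5% and 64.7% of eIF3a and 71.8% and 68.6% of eIF3b, against 65.8% to 67.7% of the other genes with a peak and 65.0% of all complete windows. The mean GC content of the windows ran alongside, from 58.0% in eIF3a replicate 2 to 68.5% in METTL16 replicate 2, and its part in the CGGCGG and GGAC shares was not tested. These letter matches are descriptions of sequence and not sites of binding.

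Start codon peaks recurred on part of the genes. Among 10639 genes with a peak in any list, 3441 (32.3%) had a start codon peak in at least 1 list, of which 1703 had it in 1 list, 725 in 2, 460 in 3, 308 in 4, 198 in 5 and 47 in all 6. Both replicates of METTL16 had it on 535 of 4544 genes with a peak in both (11.8%), both of eIF3a on 220 of 4512 (4.88%), and both of eIF3b on 810 of 6373 (12.7%). The shared genes were 53.3% and 49.1% of the METTL16 replicates, 19.1% and 35.0% of the eIF3a replicates, and 42.2% and 65.1% of the eIF3b replicates. The METTL16 replicate 1 and eIF3b replicate 1 lists shared 751 start codon genes, 74.8% of the former and 39.2% of the latter, a number above that shared by the 2 METTL16 replicates.

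Of the 535 METTL16 start codon genes, 276 (51.6%, 95% Wilson interval 47.4% to 55.8%) also had the start codon covered in both eIF3b lists and 57 (10.7%, 8.31% to 13.6%) in both eIF3a lists. The same 276 genes were 34.1% of the 810 of eIF3b, and the same 57 were 25.9% of the 220 of eIF3a. eIF3a and eIF3b shared 131 genes, which were 59.5% of the eIF3a genes and stood against 810 eIF3b genes in all. All 3 proteins shared 47 genes, or 8.79% (6.67% to 11.5%) of the METTL16 start codon genes. This number turned on eIF3a replicate 2, and without that list the share was 35.0%. Of the METTL16 start codon genes with no eIF3a start codon peak, 208 had an eIF3a peak of another class, which can be one that reached both codons, and 54 had none. No overlap of gene lists was tested against chance.

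The 47 genes covered at the start codon in all 6 lists were 1.75% of the 2690 genes with a peak in all 6. Their median fold enrichment over the 6 lists ranged from 1.97 (SLC16A3) to 26.1 (TNK2). eIF3b replicate 1 had the highest value for 27 of them, and eIF3a replicate 2 had the lowest for 31. The start codon lay in exon 1 in 28 and in a later exon in 19, and 22 (46.8%) had a strong context, near the share among all genes with a peak. Fold enrichment was at least 2 in every list for 29 and at least 4 in every list for 3, which were PTGES3, ATP2A2 and TNK2. TNK2, a non-receptor tyrosine kinase named here after its values were seen, had 19.4 and 26.2 in METTL16, 26.0 and 31.0 in eIF3a and 83.7 and 11.5 in eIF3b, and its peaks were up to 3313 bases wide.

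**Figure D5:**
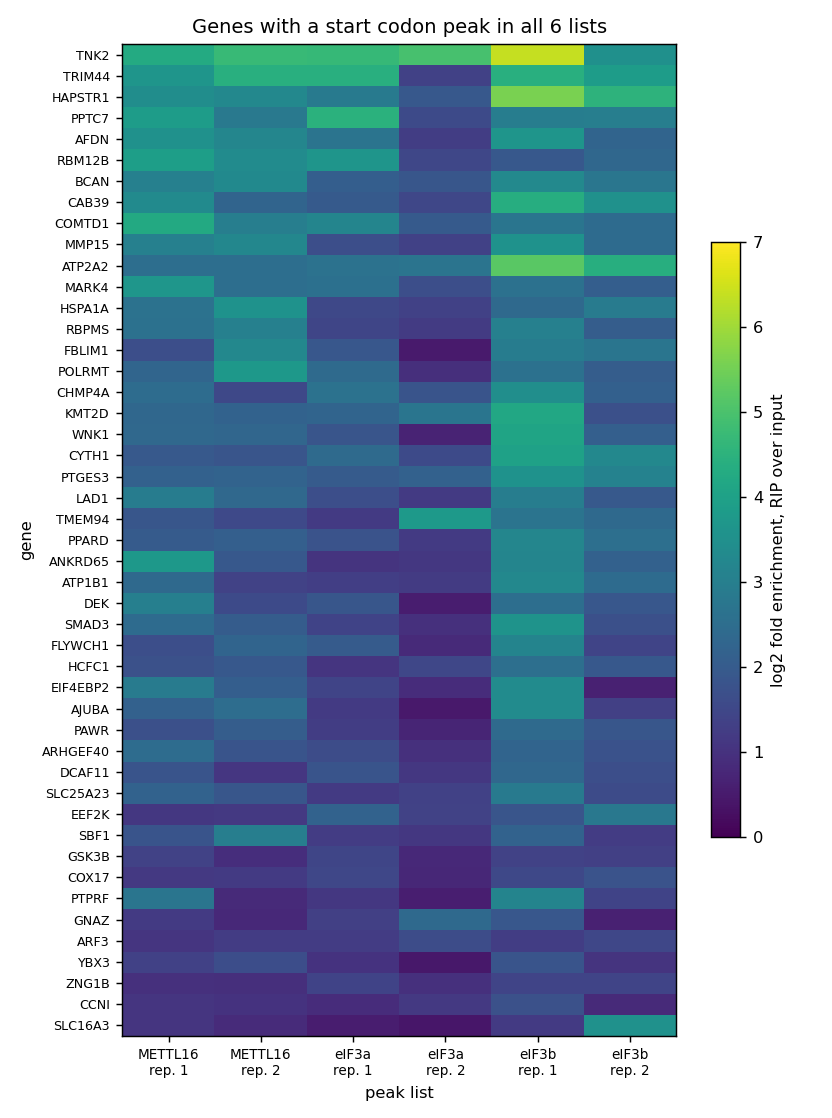
Log2 fold enrichment of RIP over input (colour) of the start codon peak of the 47 genes covered in all 6 lists (y axis, ordered by median) in each list (x axis). The eIF3b replicate 1 column is the brightest for 27 genes and the eIF3a replicate 2 column the darkest for 31.

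The next genes had the best ranks by p-value among those 47. PTGES3, the HSP90 co-chaperone p23, had fold enrichments of 4.53 and 4.69 in METTL16, 4.03 and 4.48 in eIF3a and 11.8 and 8.62 in eIF3b. Both METTL16 values were narrowly above both eIF3a values, and both eIF3b values were higher still. Its start codon on chromosome 12 (56673065 to 56687999, minus strand) is divided by an intron after exon 1, and in all 6 lists the peak covered 230 to 285 bases of the 285-base 5′ UTR and ended 6 bases after the codon. ATP2A2, the calcium pump SERCA2 of the endoplasmic reticulum, had 5.74 and 5.76 in METTL16, 6.27 and 6.5 in eIF3a and 37.1 and 21.0 in eIF3b. Here too the eIF3b values stood above the other 4. Its peaks covered 533 to 543 bases of a 543-base 5′ UTR that ends at chromosome 12, 110281790 to 110281792 (plus strand, exon 1), and reached 4 to 124 bases past the codon.

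CCNI, which codes for cyclin I, had modest enrichment of 2.13 and 2.05 in METTL16, 1.84 and 2.23 in eIF3a and 3.31 and 1.79 in eIF3b. Its replicates differed as much as its proteins did. The start codon is in exon 2 on chromosome 4 (77066360 to 77066362, minus strand). TRIM44, a tripartite motif protein, had 12.6 and 21.4 in METTL16, 21.5 and 2.56 in eIF3a and 21.5 and 14.7 in eIF3b. The eIF3a replicate 2 value was the only low one (start codon at chromosome 11, 35663112 to 35663114, plus strand, exon 1). MMP15, a membrane-bound matrix metalloproteinase, had 8.25 and 9.37 in METTL16, 3.18 and 2.56 in eIF3a and 11.8 and 5.43 in eIF3b, with both eIF3a values lowest. DCAF11, a substrate receptor of a cullin ubiquitin ligase, had 3.54 and 2.15, 3.50 and 2.21, and 5.09 and 3.18, with a strong context and the start codon in exon 2. HSPA1A, the inducible HSP70 chaperone, had 6.18 and 11.9, 2.87 and 2.55, and 5.22 and 7.59, with both eIF3a values lowest. HSPA1A has a near-identical neighbouring copy, so its reads may have been divided between copies. RBPMS, an RNA-binding protein, had 6.16 and 8.23, 2.78 and 2.33, and 8.28 and 4.19.

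In 5 further genes of the 47 the peak centre lay nearest to the start codon, at a mean distance of 9.50 to 19.5 bases over the lists. These were ARHGEF40 (a guanine nucleotide exchange factor), FBLIM1 (a filamin-binding protein), YBX3 (a cold shock domain RNA-binding protein), HAPSTR1 and AFDN (afadin of cell junctions). HAPSTR1 had 10.7 and 9.68 in METTL16, 7.44 and 3.78 in eIF3a and 48.2 and 23.0 in eIF3b, with no overlap between the proteins. AFDN had 11.7 and 9.21, 6.41 and 2.41, and 12.5 and 4.82, so its eIF3b replicates enclosed the METTL16 values. YBX3 had 2.57 and 3.12, 2.03 and 1.38, and 3.55 and 2.06. In all 5 genes the lowest value was in eIF3a replicate 2.

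Some start codons were covered for 1 protein alone, in both of its lists. For METTL16 these were 70 genes, 13.1% of its 535 start codon genes. The 5 with the highest enrichment were ATP2A3, NKD1, PGP, UNC5B and TLX1, all with the start codon in exon 1 and 72.6% to 82.9% GC around it. UNC5B, a netrin receptor (chromosome 10, 71212986 to 71212988, plus strand), had 23.8 and 38.1, and TLX1, a homeobox transcription factor (chromosome 10, 101131542 to 101131544, plus strand), had 19.9 and 38.1. Neither gene had any peak in the 4 eIF3 lists. In replicate 2 both had the same fold enrichment and the same p-value from peak calling by exomePeak (3.6e-08). The number of reads behind these values is unknown. ATP2A3, the calcium pump SERCA3, had 71.5 and 66.7 at the start codon, and its peaks in replicate 1 of eIF3a and eIF3b lay in the coding sequence at up to 19.8 and 24.7. PGP, phosphoglycolate phosphatase, had 25.2 and 167. NKD1, an antagonist of Wnt signalling, had 31.1 and 48.8, but in eIF3a replicate 1 and both eIF3b lists a single wider peak reached both of its codons and was therefore outside the rule.

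For eIF3a there were 24 such genes (10.9% of its 220), and the 5 with the highest enrichment were NLGN2, ZNF81, NBPF20, NPHP4 and ZBTB46. NPHP4, a protein of the ciliary transition zone (chromosome 1, 5986287 to 5986289, minus strand, exon 2), had 12.1 and 90.3 under peaks of 1556 and 3320 bases. ZBTB46, a zinc finger transcription factor, had 10.2 and 103, and ZNF81 had 22.3 and 35.2 (chromosome X, 47846268 to 47846270, plus strand, exon 2). Away from the start codon, METTL16 had peaks of up to 13.2 and 16.7 on ZBTB46, and eIF3b of up to 15.1 and 14.7 on ZNF81. In all 5 genes the start codon value of eIF3a replicate 2 was above that of replicate 1. The start codon lay in a later exon in 4 of the 5, NLGN2 in exon 1 being the exception. NBPF20 belongs to a family of near-identical copies, so its value is uncertain.

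For eIF3b there were 127 such genes (15.7% of its 810), headed by PPP1R3E, CCNL2, HNRNPUL2, RRAGC and JMJD8, all with the start codon in exon 1. RRAGC, a Rag GTPase of the mTORC1 pathway (chromosome 1, 38859644 to 38859646, minus strand), had 17.8 and 23.5 in narrow peaks of 151 and 121 bases and no peak in any other list. Both of its peaks held only the last base of the start codon and lay otherwise in the coding sequence. PPP1R3E, a glycogen-targeting subunit of protein phosphatase 1, had 27.5 and 30.8, while METTL16 replicate 2 had coding peaks on it of up to 40.5. HNRNPUL2, an RNA-binding nuclear protein, had 19.4 and 26.4, and METTL16 had peaks elsewhere on it of up to 34.0 and 39.3. The selection of these genes by protein fixed the direction of their differences, and they were not tested.

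A further 44 of the 131 genes covered in all 4 eIF3a and eIF3b lists (33.6%) were covered in no METTL16 list. For scale, 17.5% and 17.4% of all genes with a METTL16 peak had a start codon peak. Peaks that reached both codons did not count as covering here. Of the 44, the 5 with the highest enrichment were PTPN12, ATP2A1, POTEF, OTUD6B and CAPRIN2. PTPN12, a cytosolic tyrosine phosphatase (chromosome 7, 77537547 to 77537549, plus strand, exon 1), had 37.2 and 18.4 in eIF3a and 172 and 38.2 in eIF3b, while METTL16 had coding peaks of up to 3.72 in replicate 1 and no peak in replicate 2. Both eIF3b values were above both eIF3a values. ATP2A1, the calcium pump SERCA1, had 29.8 and 9.38 and 22.0 and 26.4, and METTL16 had coding peaks on it of up to 18.5 and 21.4, within the range of the eIF3 values. CAPRIN2, an RNA-binding protein related to caprin-1, had 9.09 and 13.8 and 5.99 and 12.8, without separation of the subunits. POTEF, on which METTL16 had coding peaks of up to 17.5 and 19.1, has near-identical relatives in the genome, and its assignment is uncertain. Conversely, 80 of the 276 genes covered in all METTL16 and eIF3b lists (29.0%) were covered in no eIF3a list. Of all genes with an eIF3a peak, 14.4% and 12.2% had a start codon peak.

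The genes that code for the proteins studied and for known cases of start site control were read out whatever their values. EIF3A had a peak in each list and none over its start codon. METTL16 likewise had coding and 3′ UTR peaks in all 6 lists, with the highest enrichment of 67.5 and 38.1 in its own pull-down, and no start codon peak. Reads from the introduced constructs and from the endogenous genes cannot be told apart in these lists. EIF3B had its start codon covered in 5 lists, with 5.32 and 5.70 in METTL16, 2.84 in eIF3a replicate 1 and 6.0 and 3.34 in eIF3b, under peaks of 509 to 629 bases. In eIF3a replicate 2 it had peaks in the coding sequence alone, of up to 1.34. MAT2A had its start codon covered in 5 lists as well, with 4.82 and 2.44 in METTL16, 3.34 in eIF3a replicate 2 and 4.29 and 6.98 in eIF3b, and in eIF3a replicate 1 a single peak of 6.32 reached from the start to the stop codon. The METTL16 and eIF3b values of MAT2A overlapped.

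JUN and BTG1, whose 5′ UTR structures are known to be bound by eIF3, differed. JUN had its start codon covered in eIF3a replicate 1 (5.16) and eIF3b replicate 2 (11.2), with 834 and 863 bases of its 977-base 5′ UTR under the peak, and separate 5′ UTR and coding peaks in the other 4 lists. BTG1 had it covered in both METTL16 lists (4.73 and 2.15) and both eIF3b lists (1.86 and 2.14) and had no peak in eIF3a. ATF4, the stress-induced factor whose translation depends on upstream reading frames, had no start codon peak, and its peaks lay in the coding sequence, over the stop codon or, for eIF3b, also off the canonical transcript. EIF1 and EIF5, which code for factors that set the stringency of start codon selection, had a start codon peak in 1 list (EIF1, METTL16 replicate 1, 3.15) and in none, and in METTL16 replicate 2 an EIF1 peak of 3.40 reached both codons.

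Start codons other than AUG were among the members. The annotation held 38 of them, 24 on genes with a peak, and 12 had a start codon peak in at least 1 list. EIF4G2, a relative of eIF4G translated from a GUG, was covered in 5 lists at 2.14 and 1.72 in METTL16, 1.78 in eIF3a replicate 1 and 2.01 and 1.80 in eIF3b. The values lay close together, the peaks of METTL16 replicate 2, eIF3a replicate 1 and eIF3b replicate 2 held only the last 2 bases of the GUG, and eIF3a replicate 2 had coding and stop codon peaks instead. DDX17, an RNA helicase with a CUG start, was covered in 4 lists at 2.96 in METTL16 replicate 1, 2.56 in eIF3a replicate 1 and 2.65 and 1.88 in eIF3b. TEAD3, a transcription factor of the Hippo pathway with an AUA start, was covered in 4 lists at 2.19 to 15.9, the highest in METTL16 replicate 1. GTF3A, the transcription factor of 5S RNA genes, was covered in both METTL16 lists (3.38 and 3.37) and eIF3b replicate 1 (1.62). VEGFA, the angiogenic growth factor, has a CUG start for its long form, which was covered in both METTL16 lists (10.5 and 5.69) and eIF3a replicate 2 (4.49), whereas in the other 3 lists 1 wide peak reached from start to stop codon. DDX17, TEAD3 and GTF3A were named after their values were seen.

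Gene groups were then read against the 32.3% of all genes with a peak that had a start codon peak in any list. No set was tested, so the counts are descriptions. Of the immediate early and growth-control transcription factors, 17 of 28 genes with a peak had a start codon peak (60.7%). Both METTL16 lists had it on 5 of 24 genes with a peak in both (20.8%), both eIF3a lists on 0 of 13 and both eIF3b lists on 4 of 25 (16%). Over all such genes the shares were 11.8%, 4.88% and 12.7%. The mean GC content around the start codon was 66.8% in this group and 60.1% over all canonical start codons. The part of GC content in these shares was not tested. FOSL2, a Fos family factor, had 7.46 and 4.53 in METTL16, 3.09 in eIF3a replicate 1 and 12.4 and 6.5 in eIF3b. ID2, an inhibitor of helix-loop-helix factors, had 1.77 and 2.69, 2.07, and 1.39 and 1.77 in the same lists. EGR1 had 13.2 and 16.7 in METTL16 and 2.37 and 4.08 in eIF3b, without overlap, and no start codon peak in eIF3a. In eIF3a replicate 1 it had coding peaks of up to 8.93. The p-values of its start codon peaks from exomePeak were 6.9e-05 and 0.0011 in METTL16 and 0.00074 and 8.5e-05 in eIF3b. The number of reads behind these weak calls is unknown. The strength of enrichment thus differed widely inside this group.

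Of the proto-oncogene and receptor kinases, 14 of 22 genes had a start codon peak (63.6%), and the mean GC content around the start codon was 67.8%. Both METTL16 lists had it on 4 of 17 genes with a peak in both (23.5%), both eIF3a lists on 0 of 14 and both eIF3b lists on 3 of 20 (15%). FGFR4, the fibroblast growth factor receptor of hepatocytes, had 3.30 and 1.41 in METTL16, 2.50 in eIF3a replicate 1 and 3.89 and 2.35 in eIF3b. EPHB4, an ephrin receptor, had 3.51 and 5.63, 3.40, and 5.61 and 3.29 in the same lists. EPHA2 had 9.27 in METTL16 replicate 1 and 6.18 and 1.73 in eIF3b. Of the Wnt and Notch pathway genes, 16 of 27 had a start codon peak (59.3%), and the mean GC content around the start codon was 69.3%. Both METTL16 lists had it on 1 of 14 genes with a peak in both (7.14%), both eIF3a lists on 1 of 18 (5.56%) and both eIF3b lists on 6 of 20 (30%). GSK3B, the kinase that marks β-catenin for destruction, was covered in all 6 lists at 2.60 and 1.88 in METTL16, 2.75 and 1.75 in eIF3a and 2.59 and 2.53 in eIF3b. These values overlapped between all proteins. DVL1, an adaptor of Wnt receptors, had 3.92 in METTL16 replicate 2, 2.05 in eIF3a replicate 2 and 3.71 and 2.26 in eIF3b. FZD5, a Wnt receptor, and AXIN2, a scaffold of the destruction complex, were each covered in METTL16 replicate 1 (2.32 and 2.65, respectively) and both eIF3b lists.

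Of the translation initiation factor genes, 19 of 51 had a start codon peak (37.3%), in both METTL16 lists for 4 of 27 genes with a peak in both, in both eIF3a lists for 2 of 19 and in both eIF3b lists for 8 of 32. These were 14.8%, 10.5% and 25%, beside 11.8%, 4.88% and 12.7% of all genes with a peak in both lists. EIF4EBP2, a repressor of the cap-binding factor eIF4E, had 7.56 and 4.27 in METTL16, 2.71 and 1.84 in eIF3a and 10.3 and 1.57 in eIF3b. The eIF3b replicates spanned all other values. Of the integrated stress response genes, 8 of 20 had a start codon peak (40%). TRIB3, a stress-induced pseudokinase, had 2.18 and 2.45 in METTL16 and 2.40 in eIF3b replicate 1, and EIF2AK4, the amino acid sensor kinase GCN2, had 4.45 and 12.4 in METTL16 and 6.82 in eIF3a replicate 1. PPP1R15B, which recruits the phosphatase of eIF2α, had start codon values of 2.07 and 1.51 in eIF3b alone. The replicate 2 peak was 61 bases wide, with a p-value of 0.0049 from exomePeak. Away from the start codon, METTL16 replicate 2 had coding peaks on it of up to 2.24 and eIF3a replicate 2 had 3′ UTR peaks of up to 2.2. Of the genes listed for an alternative or non-AUG start, 6 of 11 had a start codon peak (54.5%). Of the cytosolic ribosomal protein genes, 23 of 52 had one (44.2%), in both METTL16 lists for 6 of 22 (27.3%), in both eIF3b lists for 4 of 20 (20%) and in both eIF3a lists for 0 of 5, beside 11.8%, 12.7% and 4.88% of all such genes.

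Of the liver secreted proteins, 6 of 23 genes had a start codon peak (26.1%, beside 32.3% of all genes with a peak). Both METTL16 lists had it on 2 of 16 genes with a peak in both (12.5%, beside 11.8% of all such genes). For eIF3a these were 0 of 2, and for eIF3b 1 of 12 (8.33%, beside 12.7%). APOB, the structural protein of hepatic lipoproteins, had 2.70 and 2.75 in METTL16, 1.87 in eIF3a replicate 1 and 2.37 and 1.38 in eIF3b. Its peaks covered its whole 128-base 5′ UTR and ended 20 or 50 bases after the codon. APOA2, an apolipoprotein, had values of 1.31 to 1.56 in 4 lists. Of the homeobox, forkhead and SOX genes, 21 of 56 had a start codon peak (37.5%). FOXQ1 had 4.79 and 6.56 in METTL16, 2.63 in eIF3a replicate 1 and 5.21 and 3.19 in eIF3b, and FOXO3 had 5.07 and 5.72, 5.58, and 10.9 and 4.50. FOXP4 had 18.5 in METTL16 replicate 1, 31.0 and 1.61 in eIF3a and 23.8 and 12.6 in eIF3b. The FOXP4 replicates of eIF3a thus lay at both ends of its range.

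Of the zinc finger ZNF genes, 145 of 366 had a start codon peak (39.6%). Both lists of METTL16 had it on 5 of 91 genes with a peak in both (5.49%, against 11.8% of all genes), both of eIF3a on 19 of 150 (12.7%, against 4.88%) and both of eIF3b on 31 of 207 (15.0%, against 12.7%). The mean GC content around the start codon of ZNF genes with a peak was 56.8%. ZNF316 had 38.4 and 59.6 in METTL16, 3.82 in eIF3a replicate 1 and 10.8 in eIF3b replicate 2, and in eIF3b replicate 1 it was covered at a value between those of eIF3b replicate 2 and METTL16, whereas ZNF609 had its highest value of 13.1 in eIF3a replicate 2 and 2.53 to 4.11 in 4 other lists. ZNF500 had 11.3 in METTL16 replicate 1, 11.2 and 11.0 in eIF3a and 12.8 and 4.89 in eIF3b. Of the solute carrier genes, 65 of 199 had a start codon peak (32.7%), at the share of all genes. SLC25A23, a mitochondrial ATP and phosphate carrier, was covered in all 6 lists at 2.3 to 7.24. SLC6A8, the creatine transporter, had 9.14 and 20.2 in METTL16, 3.41 in eIF3a replicate 1 and 11.4 and 4.32 in eIF3b. SLC7A5, the large neutral amino acid transporter, had 5.13 and 2.34, 3.14, and 4.75 and 2.37 in the same lists.

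Of the respiratory chain genes, 18 of 58 had a start codon peak (31.0%). COX17, a copper chaperone of cytochrome c oxidase, was covered in all 6 lists at 2.24 and 2.3 in METTL16, 2.81 and 1.71 in eIF3a and 2.85 and 3.47 in eIF3b. Both eIF3b values were above the other 4. NDUFC2, a complex I subunit, had 4.19 and 4.26 in METTL16, 1.97 in eIF3a replicate 1 and 2.18 and 1.48 in eIF3b, with both METTL16 values highest. A read-through gene shares its start codon, so reads cannot be assigned to either transcript. Of the histone genes, 12 of 26 had a start codon peak (46.2%). H2BC21, a core histone gene, had 1.11 to 1.43 in 4 lists.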

How the data were processed

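RIP-seq was analysed in 6 RIP samples of HepG2 (2 each for METTL16, eIF3a and eIF3b, grouped by the sample titles). The 6 inputs entered only through the authors' peak calling. Reads were aligned by the authors to GRCh38 using STAR, named also in the submitters' processing notes, and peaks were called against input by exomePeak with its default settings, 1 list per RIP sample. Versions, gene annotation and the input used for each RIP were not given in the sources used here. The deposited lists give for each peak a p-value, its log10 values, treated here as a score, and a fold enrichment, which is a ratio of RIP over input. Per the study's methods the replicates were biological, and the p-values between lists measure only the spread between these samples.

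Peaks were placed on GENCODE release 44 canonical transcripts by gene symbol, strand and exonic blocks. Of 10830 gene names, 10291 matched a current symbol at the position and 461 an older one. Coordinates are counted from 1. The classifier recovered the classes of placed peaks when tested on simulated data. Shares were compared with exact two-sided permutation tests (paired sign changes over 6 lists, or 2 lists against 2) with Benjamini-Hochberg adjustment, at a threshold of 0.05. Wilson intervals cover counting error only, and the depth of the libraries is unknown. Alternatives were the 5000 peaks of smallest p-value, a minimum fold enrichment of 4, 20 bases on each side of the codon, any coding transcript, peaks reaching both codons, current symbols only, either replicate, GC classes, the replicate block and leaving out each list. Peaks of at most 300 bases were also tried for the fold enrichment and GC differences. The same limit for the shares of peaks and the coverage, and the share of genes for the differences between proteins, were alternatives chosen after seeing the data.

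Same-numbered replicates did not deviate together (correlation over 3441 genes of 0.0521, 0.0207 and -0.0569), so the numbers were not taken as pairs. The members, gene lists and tests were chosen with earlier results of these data known. Genes were named by these rules: of those covered in all 6 lists, the 8 with the best worst rank by p-value and the 5 with the peak centre nearest to the codon; for each protein, the 5 with the highest lower fold enrichment among genes covered for that protein alone; the 5 with the highest lowest value among genes covered in all eIF3 lists and no METTL16 list; 9 genes set by name; and up to 4 members of each gene list. Single ribosomal protein genes are not reported here. Scripts used Python 3.11.15, pandas 2.3.3, numpy 2.4.6, scipy 1.17.1 and matplotlib 3.10.9.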

Additional observations from a re-analysis of the deposited data

Results flagged for a closer look

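A pair of contrasts ran in opposite directions in eIF3a and in the other proteins, in every list, and these differences were not tested. Start codon coverage minus coverage at 300 bases downstream was 3.74 and 0.224 points in METTL16 and 6.44 and 0.711 points in eIF3b, but -1.62 and -7.95 points in eIF3a. The mean difference was 6.77 points for METTL16 against eIF3a and -8.36 points for eIF3a against eIF3b. The share of genes with a start codon peak, start codon in exon 1 minus later exon, was 5.98 and 5.73 points in METTL16 and 5.86 and 0.685 points in eIF3b, but -0.492 and -15.3 points in eIF3a. The means of this exon contrast differed by 13.8 points for METTL16 against eIF3a and by -11.2 points for eIF3a against eIF3b. Within GC classes of the start codon window, it was below 0 in 3 of 5 classes of each METTL16 list and of eIF3a replicate 1. It was below 0 in 4 of 5 classes of each eIF3b list and in all 5 of eIF3a replicate 2, so the opposite directions did not hold within GC classes. In both contrasts the value farthest from 0 within eIF3a was that of replicate 2, the list with the widest start codon peaks.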

How the results depend on the processing

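Across 16 results, 196 values were computed under other settings, of which 129 kept sign and call or, where there was no test, stayed within the spread between replicates or near the main count. Of the others, 40 shares or counts with no test moved by more, 13 values lost the threshold, 1 gained it and 13 changed sign. The means of the start codon share per protein for METTL16 and eIF3a were 9.72% and 7.41% with a fold enrichment of at least 4, 5.93% and 3.81% with the whole codon and 20 bases on each side, 10.3% and 7.46% with any coding transcript, 8.46% and 5.40% with peaks reaching both codons, and 6.71% and 3.65% with peaks of at most 300 bases. With 5000 peaks per list they were 12.2%, 8.68% and 12.7% for METTL16, eIF3a and eIF3b. The difference between METTL16 and eIF3b turned to -0.0161 points at a fold enrichment of at least 4, -0.55 with 5000 peaks, -0.0602 with 20 bases on each side, -3.94 within GC classes and -3.05 as a share of genes. Leaving out 1 list gave -1.25 (without eIF3b replicate 2) to 1.74 points (without eIF3b replicate 1), and -0.103 without METTL16 replicate 2. eIF3b minus eIF3a was 1.13 without eIF3b replicate 1 and 4.12 without eIF3b replicate 2, 6.83 within GC classes and 7.20 as a share of genes. Start minus stop turned to 1.12 at a fold enrichment of at least 4, 1.52 with any coding transcript and 0.239 with peaks of at most 300 bases, passed the threshold at -2.40 (exact permutation p = 0.03125) with 20 bases on each side, and was -0.952 to -0.473 without any 1 list.

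The median log2 fold enrichment difference was 0.0435 with a fold enrichment of at least 4, a setting that cuts on the value compared, and 0.24 to 0.36 without any 1 list. The GC difference was 7.25 to 8.67 points without any 1 list. With 5 lists no p can fall below 0.0625. Coverage at the start codon minus 300 bases downstream turned to -2.79 points with 5000 peaks, -0.438 without METTL16 replicate 1 and -0.978 without eIF3b replicate 1, and was 1.90 at most without any 1 list, 1.74 at a fold enrichment of at least 4 and 3.14 (p = 0.0625, exact permutation test) with peaks of at most 300 bases.

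Genes covered in both replicates numbered 201, 56 and 279 for METTL16, eIF3a and eIF3b at a fold enrichment of at least 4, 310, 91 and 317 with 5000 peaks, and 1559, 1561 and 2352 in either replicate, with 368 for eIF3a with any coding transcript. With 1 list in place of both they were 535 to 1090 for METTL16, 220 to 1153 for eIF3a and 810 to 1918 for eIF3b, where the lower number is that with the left-out list belonging to another protein. Genes covered in all 6 lists numbered 3 at a fold enrichment of at least 4, 21 with 5000 peaks, 79 with any coding transcript, 75 with peaks reaching both codons and 514 with either replicate. Without any 1 list they were 51 to 187, being 187 without eIF3a replicate 2 and 80 without METTL16 replicate 2. The share of METTL16 start codon genes also covered for eIF3a and eIF3b was 1.49% at a fold enrichment of at least 4, 33.0% with either replicate, 4.95% without METTL16 replicate 1 and 35.0% without eIF3a replicate 2. The cause of these changes was not tested.

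With the replicate block, the differences between proteins kept their values (2.87, 0.243 and 2.63 points) at p of 0.5, 1 and 0.5 in an exact paired permutation test, the smallest possible being 0.5, so the block changed no call. The depth behind a peak is unknown, and with 2 lists per protein no difference between proteins could pass the threshold.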

Other observations

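The 3 genes of the SERCA family of calcium pumps were each named by a different rule, which was seen only after their values were known. The start codon of ATP2A2 was covered in all 6 lists, that of ATP2A1 in the 4 eIF3 lists and in no METTL16 list, and that of ATP2A3 in the 2 METTL16 lists alone. Coding peaks were present on ATP2A1 in both METTL16 lists, of up to 18.5 and 21.4, and on ATP2A3 in replicate 1 of eIF3a and eIF3b, of up to 19.8 and 24.7.

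Peak edges at shared start codons were often placed at the same base. Among the 535 genes shared by the METTL16 replicates, 44.7% of the peaks began at the same base and 20.2% ended at the same base. Among the 810 genes shared by the eIF3b replicates these shares were 47.4% and 19.9%, and among the 220 shared by the eIF3a replicates they were 35.9% and 11.4%. Pairs of lists of different proteins gave shares of 24.7% to 45.0% for the first base and 9.42% to 23.3% for the last. Edges could fall in steps, as for PTGES3, whose peaks were 239, 269, 299 or 329 bases wide. The part of such steps in the shared edges was not tested. The median distance between the 3′ ends was 59, 60 and 185.5 bases for METTL16, eIF3b and eIF3a. The share of start codon genes also depended on the length of the 5′ UTR. From 5′ UTRs of up to 50 bases to those over 400, it went from 12.2% to 20.6% and 11.9% to 21.1% for METTL16, from 12.2% to 15.9% and 5.94% to 18.0% for eIF3a, and from 16.7% to 28.2% and 11.8% to 21.0% for eIF3b. All 6 lists thus had the lowest share at the shortest 5′ UTRs.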
